A study of Mus musculus with 8 samples.

Results

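The Siglecs are cell surface receptors that bind sialic acid, and 5 of their genes (Siglec1, Siglece, Siglech, Cd33 and Cd22) were examined in immature myeloid cells (IMCs) that lacked PARP1 or PARP2. The 5 genes were taken by symbol from 24062 genes with a row of counts, and each of the 5 was among the 13197 genes with enough counts to be tested. They were selected on the Siglec1 counts, which differed between PARP1CKO and PARP1 WT IMCs, so the values of these 5 genes in that comparison are given as a description, without a test. The IMCs came from bone marrow of 2-month-old C57BL/6 mice, expanded for 3 days with M-CSF (40 ng/mL), and 2 libraries were sequenced in each of 4 groups. PARP1 WT and PARP2 WT mice carried homozygous floxed alleles (flox/flox) of Parp1 or of Parp2 and no Cre, and PARP1CKO and PARP2CKO mice carried the same alleles with lysozyme-Cre. All 4 groups were therefore floxed, and Cre driven by lysozyme deletes in the myeloid lineage, so other cells of the culture would keep the gene. The labels call the libraries biological duplicates without tying replicate numbers to animals, so p-values measure the spread between these libraries.

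Siglecs recognise sialic acid at the ends of glycans on the same cell, on other cells or on microbes. Most carry inhibitory motifs in the cytoplasmic tail that recruit the phosphatases SHP-1 and SHP-2, whereas others lack a signalling tail or pair with the activating adaptor DAP12. Macrophages, monocytes, granulocytes, plasmacytoid dendritic cells and B cells each display their own set of these receptors.

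Siglec1 (ENSMUSG00000027322.11; chr2:131069220-131086765, minus strand, mm10) encodes sialoadhesin, a macrophage receptor for cell adhesion with no inhibitory motif. The other 4 genes lay on chromosome 7. Siglece (ENSMUSG00000030474.9; chr7:43651070-43660161, minus strand) encodes an inhibitory receptor of myeloid cells, and Cd33 (ENSMUSG00000004609.11; chr7:43524216-43544428, minus strand) a myeloid receptor whose mouse form differs from the human one in its tail. These 2 genes were 107 kb apart. Siglech (ENSMUSG00000051504.18; chr7:55768178-55778925, plus strand) encodes a DAP12-coupled receptor of plasmacytoid dendritic cells, and Cd22 (ENSMUSG00000030577.14; chr7:30865402-30880342, minus strand) an inhibitory co-receptor of B cells. No 75-base stretch of their exons was shared between these 5 genes, whereas 5.89% of the Cd22 stretches were shared with the antisense gene Gm29439, whose reads cannot be told apart from those of Cd22 if counting ignored the strand.

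Siglece and Cd33 followed each other most closely among the 5 genes, with a Pearson r of 0.84 across the 8 libraries, which share their normalization. Of 11446 other genes, 0.961% matched Siglece at least as closely, and no p is given for this description. The RefSeq sequences just before the start sites of this pair (GRCm38.p6, minus strand) are therefore shown, 250 bases for Siglece at chr7:43660162-43660411 and 193 bases for Cd33 at chr7:43533172-43533364. The RefSeq start of Cd33 lies 11.3 kb inside the gene span given above, whose outermost start belongs to another transcript. Capitals mark AGGAAG or GGAAGT on either strand, overlapping forms of the ETS core that PU.1 and its relatives bind, and RefSeq promoters were matched for 4 of the 5 genes.
Siglece: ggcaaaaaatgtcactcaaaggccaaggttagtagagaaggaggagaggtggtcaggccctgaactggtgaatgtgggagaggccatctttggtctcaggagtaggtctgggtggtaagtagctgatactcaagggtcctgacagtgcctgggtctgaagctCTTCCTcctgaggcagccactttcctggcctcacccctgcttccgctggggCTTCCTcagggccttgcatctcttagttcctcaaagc
Cd33: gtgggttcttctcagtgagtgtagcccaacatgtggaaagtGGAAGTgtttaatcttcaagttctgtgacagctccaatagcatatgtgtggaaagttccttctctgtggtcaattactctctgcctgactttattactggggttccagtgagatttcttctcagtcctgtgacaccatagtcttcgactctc
The Siglece stretch held AGGAAG at 2 places and the Cd33 stretch held GGAAGT at 1 place. The full 250 bases before the RefSeq start of Cd33 also held AGGAAG at 1 place, within the 57 bases farthest from the start, which are not printed because they overlap an annotated exon. Among 32851 mouse promoters, 29.5% held AGGAAG and 19.7% held GGAAGT within 250 bases before the start.

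The libraries held 37852450 to 61845125 counts each. Parp1, the target in PARP1CKO IMCs, measured 202 and 211 CPM (counts scaled to a common library total) in the PARP1 WT libraries against 63.2 and 59.1 CPM in the PARP1CKO libraries, and it fell by 1.75 on the log2 scale (edgeR quasi-likelihood test, Benjamini-Hochberg adjusted p = 0.0134). Parp2 measured 48.2 and 48.3 CPM in the PARP2 WT libraries against 25.7 and 25.6 CPM after its deletion, and it fell by 0.91 (adjusted p = 0.000139). In the other line, Parp1 measured 251 and 155 CPM in PARP2 WT libraries and 263 and 264 CPM in PARP2CKO libraries, and Parp2 39.0 and 40.8 CPM in PARP1 WT libraries and 38.3 and 37.0 CPM in PARP1CKO libraries. Some myeloid genes were high in all libraries. Their means were 945 CPM for Itgam, which encodes CD11b, 1210 CPM for Csf1r and 1010 CPM for S100a9. The macrophage markers Cd68, Mrc1 and C1qb averaged 1750, 663 and 410 CPM. Other myeloid genes were lower, such as Cebpa at 53.3 CPM, Retnlg at 14.1 CPM, the macrophage marker Vcam1 at 5.84 CPM and Ly6c1 at 0.738 CPM. The listed myeloid genes Ly6g and Adgre1 had no row of counts. Some markers of other cells were low, with means of 2.74 CPM for the B cell gene Ms4a1 and 0.0538 CPM for the T cell gene Cd3e, whereas others on these lists were not, such as Blnk at 105 CPM and Tlr7 at 156 CPM. Fewer cells of a type and less RNA per cell cannot be told apart in these bulk libraries.

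Per kilobase of exon, Siglec1 was the most abundant of the 5 genes, at a mean of 15.0 CPM per kb and a range of 9.8 to 19.9 over the libraries. Cd33 followed at 7.46 (6.01 to 8.5) and Siglece at 3.45 (3.05 to 4.07). The B cell co-receptor gene Cd22 reached 1.83 CPM per kb (1.58 to 2.36) and Siglech 1.09 (0.687 to 1.69). The ranges of Cd22 and Siglech met, while no other neighbours in this order overlapped. Siglec1 made up 41.2 to 58.8% of the summed CPM per kb of the 5 genes in each library, and Cd33 20.4 to 32.6%. Raw counts per library ran from 2709 to 6765 for Siglec1 and from 121 to 259 for Siglech, so the Siglech values carried the most counting error.

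Siglec1 levels were 70.0 and 76.7 CPM for PARP1 WT, 124 and 142 CPM for PARP1CKO, 96.8 and 110 CPM for PARP2 WT, and 113 and 123 CPM for PARP2CKO. Both PARP1 WT libraries were the lowest of the 8, and both PARP1CKO libraries were the highest. The group means were 73.3 ± 4.72 CPM (SD, n = 2) for PARP1 WT, 103 ± 9.45 for PARP2 WT, 118 ± 7.12 for PARP2CKO and 133 ± 12.9 for PARP1CKO. In this order the step from PARP2CKO to PARP1CKO (14.5 CPM) was smaller than the combined SD of both groups (14.8 CPM), and the other steps were larger than theirs.

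Siglec1 was 1.81-fold higher in PARP1CKO than in PARP1 WT IMCs, a log2 fold change of 0.86 (SE 0.09) that ranged from 0.75 to 0.95 when each library was left out. In this comparison 0.106% of all genes tested were called at an adjusted p under 0.05, and nothing is read from that share, since the comparison chose Siglec1. The PARP2 WT libraries, which were also floxed and without Cre, exceeded the PARP1 WT libraries by 0.49 (SE 0.09), with no overlap between these control groups, as for 51.9% of all genes tested. This value is a description too, since the PARP1 WT libraries entered the choice of genes. Line, litter and culture cannot be told apart in that difference.

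**Figure D1:**
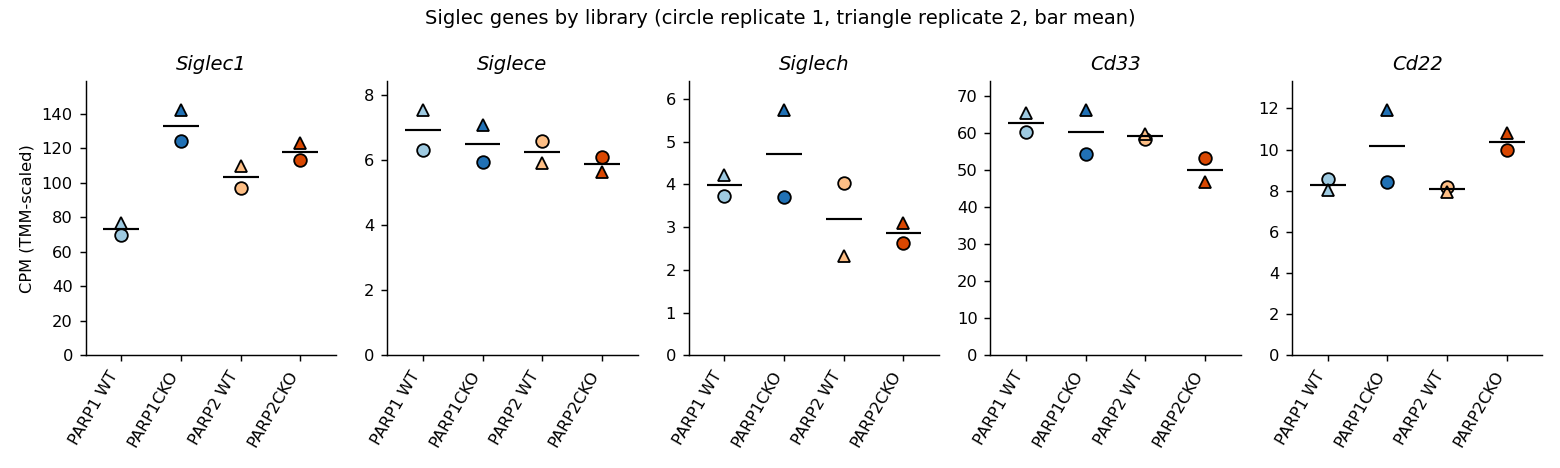
Level of each Siglec gene (CPM, linear axes from 0) in the 8 libraries; circles are replicate 1, triangles replicate 2 and bars the group means. Siglec1 was lowest in both PARP1 WT libraries (70.0 and 76.7 CPM) and highest in both PARP1CKO libraries (124 and 142 CPM), whereas the other genes overlapped between PARP1 WT and PARP1CKO.

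The 4 other receptor genes did not separate PARP1CKO from PARP1 WT IMCs. Siglece measured 6.31 and 7.52 CPM in PARP1 WT libraries against 5.93 and 7.08 CPM in the deletion. Cd33 measured 60.3 and 65.2 CPM against 54.2 and 66.0 CPM. Both pairs of groups overlapped, with log2 fold changes of -0.09 (SE 0.13) for Siglece and -0.06 (SE 0.09) for Cd33. With 1 library left out these ranged from -0.23 to 0.04 and from -0.21 to 0.07.

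Siglech and Cd22 were each high in 1 PARP1CKO library, replicate 2. Siglech measured 3.72 and 4.23 CPM without Cre against 3.71 and 5.73 CPM with it, with a log2 fold change of 0.24 (SE 0.27). Cd22 measured 8.58 and 8.02 CPM against 8.42 and 11.9 CPM, with a log2 fold change of 0.29 (SE 0.15). Without that library the difference of Siglech was -0.11 and that of Cd22 was 0.02, so both rested on it. Among all genes tested, 41.2% had groups that did not overlap in this comparison, and of the 5 genes only Siglec1 did, the gene whose difference here chose the 5, so nothing is read from that count.

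The selection on Siglec1 did not use the comparison of the PARP2 deletion, although earlier results of these data were known when the genes were chosen. None of the 5 genes passed the test there, where 0.053% of all genes tested were called. At an unadjusted p under 0.05 there were 3 of 5 (Siglec1, Cd33 and Cd22), against 4.83% of all genes tested. Neither edgeR's likelihood-ratio test nor DESeq2 called any of the 5, where they called 0.296% and 0.205% of all genes. So few genes were called by any tool that nothing is read from these counts of 0.

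Cd33 measured 58.3 and 59.7 CPM in PARP2 WT libraries against 53.3 and 46.7 CPM in the deletion. Both PARP2CKO libraries were the lowest of all 8, and the log2 fold change was -0.24 (SE 0.09; edgeR adjusted p = 0.954). Its range with 1 library left out was -0.34 to -0.14.

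Cd22 measured 8.18 and 7.96 CPM without Cre and 9.96 and 10.8 CPM with it. The groups did not overlap, and the log2 fold change was 0.36 (SE 0.14; edgeR adjusted p = 0.954), with a range of 0.30 to 0.42 when 1 library was left out. The Siglec1 libraries were separate as well, with a mean 1.14 times that of PARP2 WT and a log2 fold change of 0.19 (SE 0.08; edgeR adjusted p = 0.954), which ranged from 0.10 to 0.29 with 1 library left out and was lowest without replicate 1 of PARP2 WT. Groups that did not overlap were found for 37.2% of all genes tested.

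In the same libraries Siglece measured 6.59 and 5.90 CPM against 6.10 and 5.63 CPM, and Siglech 4.03 and 2.33 CPM against 2.63 and 3.09 CPM. Both overlapped between groups. The log2 fold changes were -0.09 (SE 0.13) for Siglece and -0.16 (SE 0.28) for Siglech, each with an edgeR adjusted p of 0.977. With 1 library left out the Siglece value ran from -0.16 to -0.0065, the latter without replicate 1 of PARP2 WT. The sign of the Siglech difference turned to 0.29 without replicate 1 of PARP2 WT.

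**Figure D2:**
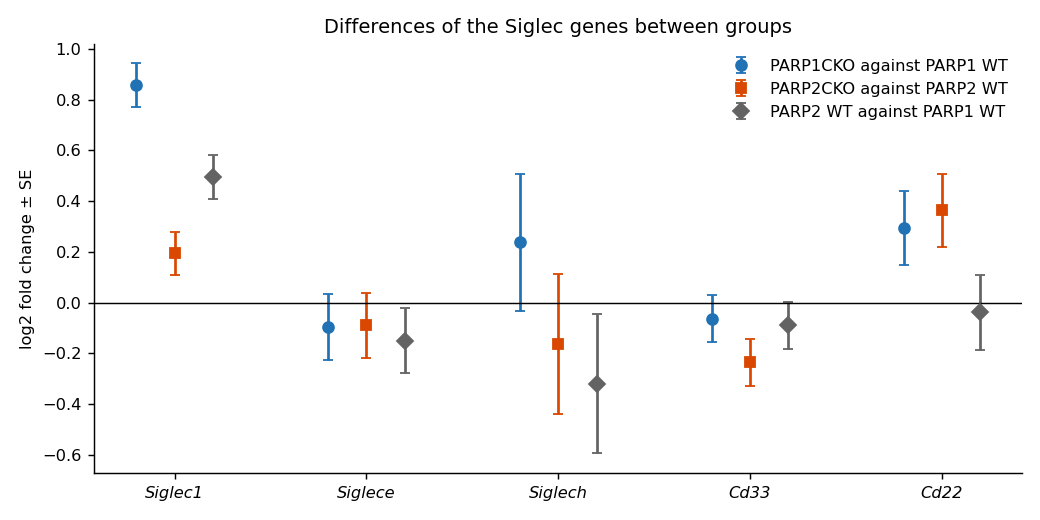
Log2 fold change (points) with its standard error (bars) of the 5 genes for the PARP1 deletion, for the PARP2 deletion and for PARP2 WT against PARP1 WT. Siglec1 lies at 0.86, 0.19 and 0.49, whereas Siglece lies between -0.15 and -0.09 in all 3.

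Set side by side, the Siglec1 difference was 0.66 lower in the PARP2CKO comparison than in the PARP1CKO comparison (SE 0.12), a description without a test. For Cd22 the log2 fold changes were 0.29 in PARP1CKO (0.02 without replicate 2 of PARP1CKO) and 0.36 in PARP2CKO, and for Cd33 they were -0.06 (0.07 without replicate 1 of PARP1CKO) and -0.24, with overlapping groups for both genes in PARP1CKO. Between the control groups, PARP2 WT against PARP1 WT, the edgeR test called 3.16% of all genes and none of Siglece (-0.15, adjusted p = 0.576), Siglech (-0.32, adjusted p = 0.574), Cd33 (-0.09, adjusted p = 0.654) and Cd22 (-0.04, adjusted p = 0.916). With 1 library left out these values ran from -0.27 to -0.0142 for Siglece, from -0.78 to 0.0132 for Siglech, from -0.14 to -0.03 for Cd33 and from -0.09 to 0.00827 for Cd22, so the sign of Siglech turned without replicate 2 of PARP2 WT and that of Cd22 without replicate 1 of PARP1 WT. The values of Siglece and Cd33 nearest 0 were those without replicate 2 of PARP1 WT. DESeq2 and the likelihood-ratio test called none of these 4 genes either, where they called 4.18% and 6.9% of all genes. Nothing is read from these counts of 0.

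Of 4 further Siglec genes in the table, 3 passed the filter. Siglecg, an inhibitory receptor of B cells, measured 5.22 and 4.19 CPM for PARP1 WT, 5.53 and 6.52 CPM for PARP1CKO, 3.18 and 2.58 CPM for PARP2 WT and 2.85 and 2.71 CPM for PARP2CKO. All 4 libraries of the PARP2 line were below all 4 of the PARP1 line, with a log2 fold change between the control groups of -0.70 (edgeR adjusted p = 0.0563, likelihood-ratio test 0.00358, DESeq2 0.0362). Mag, which encodes the myelin-associated glycoprotein, had the opposite order, at 2.07 and 2.00 CPM in PARP1 WT and 3.09 and 3.40 CPM in PARP2 WT (0.68, edgeR adjusted p = 0.054, likelihood-ratio test 0.00573, DESeq2 0.13). The gene listed as Siglec5, a symbol that is a synonym of more than 1 mouse Siglec, ranged from 1.19 to 1.97 CPM, and Siglec15, an osteoclast Siglec, had 1 to 6 counts per library.

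Most B cell markers separated the lines, and Cd22 did not. Cd79a, which encodes a signalling chain of the B cell receptor, measured 9.79 and 8.20 CPM in PARP1 WT and 2.75 and 2.42 CPM in PARP2 WT (log2 fold change -1.79, edgeR adjusted p = 0.00529). Of 9 B cell markers tested, 7 were called lower and 1, Blnk, higher in PARP2 WT, beside 3.16% of all genes in either direction. The summed CPM of the 10 markers besides Cd22 did not separate the lines (117.6 to 138.0 in the PARP1 line and 119.9 to 139.4 in the PARP2 line), and Blnk, an adaptor gene, made up 66.5 to 94.0% of it. Picked after the values were seen, the summed CPM of Cd79a, Cd79b and Ms4a1 lay between 20.9 and 29.2 in the PARP1 line and between 6.29 and 8.47 in the PARP2 line. Cd22 was close in the control groups, at 8.30 ± 0.395 and 8.07 ± 0.156 CPM (SD, n = 2). It measured 9.96 and 10.8 CPM in PARP2CKO against 8.18 and 7.96 CPM in PARP2 WT. This difference was not called (edgeR adjusted p = 0.954). The sum of the 3 markers was 6.29 and 8.47 in PARP2CKO and 8.44 and 7.19 in PARP2 WT. Across the 8 libraries Cd22 had an r of 0.54 with the sum of 10 markers and 0.10 with the sum of these 3. Within the PARP1 line, Cd22 and the 3-marker sum were both highest in replicate 2 of PARP1CKO. The part of B cells in the Cd22 values was not tested.

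The plasmacytoid dendritic cell markers besides Siglech had unequal levels. Klk1 had 0 to 6 counts per library and Cd209d 0 to 10, and Pacsin1 averaged 0.571 CPM, whereas Tlr7, Irf8 and Lair1, which other myeloid cells also express, averaged 156, 138 and 99.9 CPM and led the summed level. Of 10 tested, edgeR called 1, Spib, lower in PARP2 WT than in PARP1 WT (log2 fold change -1.49, adjusted p = 0.0244, beside 3.16% of all genes) and none in either deletion. The likelihood-ratio test called 4 between the control groups, Spib, Tlr9 and Ccr9 lower and Irf8 higher (6.9% of all genes), and DESeq2 called Spib, Tlr9 and Ccr9 (4.18% of all genes). Ccr9, a homing receptor of these cells (-0.88, edgeR adjusted p = 0.129), ran from 3.93 to 6.02 CPM in the PARP1 line and from 1.65 to 2.77 CPM in the PARP2 line. The summed CPM of the 12 markers besides Siglech ranged from 529.5 to 558.6 for PARP1 WT, 537.1 to 586.4 for PARP1CKO, 506.5 to 529.1 for PARP2 WT and 493.9 to 530.0 for PARP2CKO, and their part in the Siglech values was not tested.

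The Siglec1 gene is known to be induced by interferon, and 24 interferon response genes were examined beside it. Their summed CPM was 735.2 and 579.3 for PARP1 WT, 675.5 and 928.2 for PARP1CKO, 491.1 and 518.0 for PARP2 WT, and 423.6 and 481.8 for PARP2CKO. Replicate 1 of PARP1CKO lay between the PARP1 WT libraries in this sum, and its Siglec1 level of 124 CPM was above both of theirs. Replicate 2 of PARP1CKO had both the highest sum and the highest Siglec1 level (142 CPM), and replicate 1 of PARP1 WT the second highest sum and the lowest Siglec1 level. The part of the interferon response in the Siglec1 values was not tested.

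All 24 interferon response genes had a positive log2 fold change in PARP1CKO (median 0.43, against 0.01 over all genes tested), but the median was -0.01 without replicate 2 of PARP1CKO, and 3 of 24 had PARP1CKO libraries that were both above PARP1 WT, against 21% of all genes tested. With another library left out that median ran from 0.17, without replicate 2 of PARP1 WT, to 0.83. In PARP2CKO 23 of 24 were below 0 (median -0.23, with -0.09 without replicate 1 of PARP2CKO and -0.42 without its replicate 2), and 16 had PARP2CKO libraries that were both below PARP2 WT, against 18.8% of all genes tested. The edgeR test called none of them in either deletion, and neither did the likelihood-ratio test or DESeq2, where edgeR called 0.106% and 0.053% of all genes, the likelihood-ratio test 1.11% and 0.296% and DESeq2 0.652% and 0.205%. At an unadjusted p under 0.05 there were 5 in PARP1CKO (11.3% of all genes) and 0 in PARP2CKO (4.83% of all genes). Stat2, which encodes a transcription factor of the pathway, averaged 78.9 CPM. Ifi44 and Ifit3 differed most in PARP2CKO, at -0.86 and -0.68 (edgeR adjusted p = 0.954 for both). Ifi44 had few counts, at 22 and 21 in the PARP2 WT libraries and 9 and 14 in the PARP2CKO libraries. In PARP2 WT against PARP1 WT all 24 were below 0 (median -0.49, with -0.14 without replicate 1 of PARP1 WT and -0.77 without its replicate 2), and 19 had PARP2 WT libraries that were both below PARP1 WT, against 25.2% of all genes tested. The edgeR test called 3 of the 24 there, beside 3.16% of all genes, and these were the antiviral synthetase genes Oas1a (-0.59, adjusted p = 0.0431), Oas2 (-0.77, adjusted p = 0.0187) and Oas3 (-1.02, adjusted p = 0.00703).

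**Figure D3:**
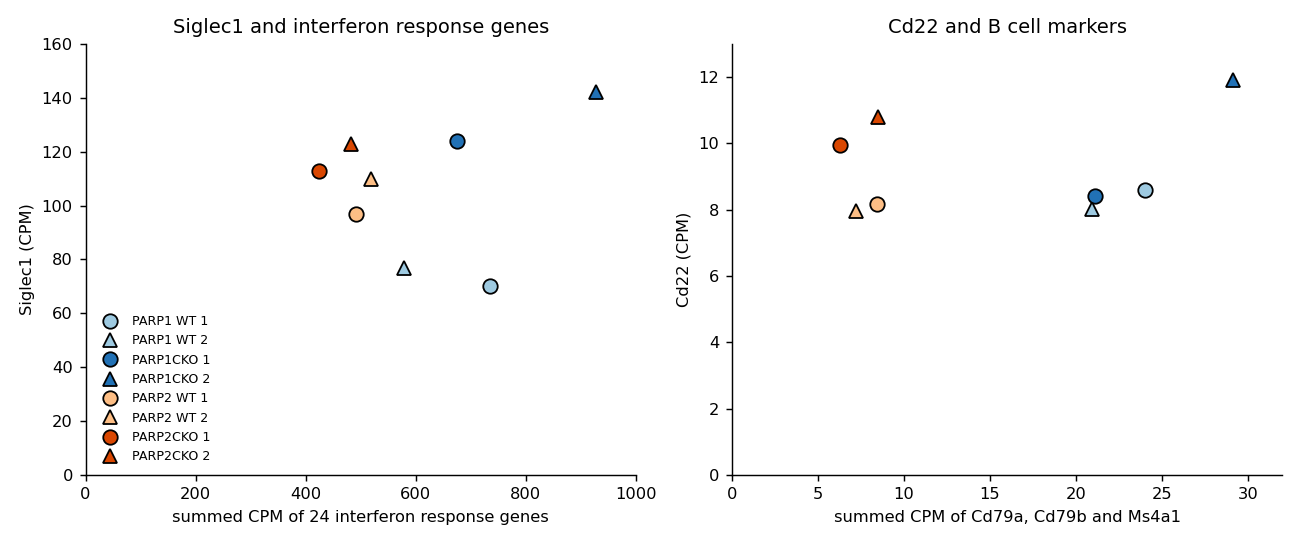
Left, Siglec1 (CPM) against the summed CPM of 24 interferon response genes; right, Cd22 (CPM) against the summed CPM of Cd79a, Cd79b and Ms4a1; each point is 1 of 8 libraries. The PARP2 libraries had low interferon sums (423.6 to 518.0) with Siglec1 at 96.8 to 123 CPM, and low sums of these 3 B cell markers (6.29 to 8.47) with Cd22 at 7.96 to 10.8 CPM; the 3 were picked after the values were seen, and the sum of all 10 markers did not separate the lines (117.6 to 138.0 against 119.9 to 139.4).

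Macrophage markers were above 0 in the comparison of the control groups, as Siglec1 was. Mertk, a receptor for the uptake of dead cells, measured 35.0 and 37.9 CPM for PARP1 WT, 40.1 and 43.2 CPM for PARP1CKO, 55.3 and 68.4 CPM for PARP2 WT and 77.7 and 73.0 CPM for PARP2CKO. Mertk was called higher in PARP2 WT than in PARP1 WT (0.76, edgeR adjusted p = 0.00529), and all 10 macrophage markers tested had a log2 fold change above 0 there. In PARP1CKO the median of these markers was 0.05 (-0.04 without replicate 2 of PARP1CKO) and the highest, Mertk, was at 0.19, beside 0.86 for Siglec1. Their part in the Siglec1 values was not tested.

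Most neutrophil markers were below 0 in PARP2CKO, as Cd33 was. Of 8 tested, 7 were below 0 and 5 had separate groups, all lower, against 18.8% of all genes tested. Their median was -0.18, and it was -0.11 without replicate 1 of PARP2 WT and also without replicate 2 of PARP2CKO. S100a8, a calcium-binding protein of neutrophils and monocytes, measured 410 and 395 CPM without Cre and 367 and 314 CPM with it, and across the 8 libraries it was second among the genes most like Cd33 (r = 0.963). The edgeR test called none of the 8 in PARP2CKO, with 2 of 8 at an unadjusted p under 0.05 (4.83% of all genes), and the likelihood-ratio test and DESeq2 each called 1, Retnlg (-0.61), where they called 0.296% and 0.205% of all genes. The part of these cells in the Cd33 value was not tested.

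Genes that act with the Siglecs were examined in 7 lists. Over these lists of further Siglecs, signalling partners, sialic acid enzymes, counter-receptors and interferon response genes, 0 of 73 genes were called in PARP1CKO or in PARP2CKO by edgeR, its likelihood-ratio test or DESeq2. Few genes were called at all in these comparisons (0.106% and 0.053% of all genes by edgeR, 1.11% and 0.296% by the likelihood-ratio test, 0.652% and 0.205% by DESeq2), so nothing is read from these counts of 0. At an unadjusted p under 0.05 there were 10 in PARP1CKO (13.7%, against 11.3% of all genes) and 1 in PARP2CKO (1.37%, against 4.83%). In PARP2 WT against PARP1 WT edgeR called 5 lower and 0 higher (3.16% of all genes in either direction), the likelihood-ratio test 6 lower and 3 higher (6.9% of all genes), and DESeq2 6 lower and 2 higher (4.18% of all genes). The genes called higher by these other tools were Mag (by the likelihood-ratio test), the sialyltransferase gene St6galnac4 (0.27, by both), Npl, which encodes the sialic acid lyase (0.39, by the likelihood-ratio test) and Cd24a (0.34, by DESeq2).

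Among 13 signalling genes, Tyrobp, which encodes DAP12, was the most abundant at 588 CPM, followed by Ptpn6, which encodes SHP-1, at 393 CPM. Tyrobp measured 608 and 574 CPM in PARP2 WT libraries and 647 and 622 CPM after the deletion (0.10, edgeR adjusted p = 0.954). Socs3, a suppressor of cytokine signalling, measured 2.73 and 2.77 CPM against 2.50 and 2.03 CPM (-0.27, adjusted p = 0.954). The median log2 fold change of the list was 0.01 in PARP1CKO and 0.02 in PARP2CKO, and with 1 library left out it ran from -0.0152 to 0.0208 and from -0.0291 to 0.0315.

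The sialyltransferases attach sialic acid to glycans. Of 20 sialyltransferase genes, 13 passed the filter and 3 had no count in any library. St3gal5, the GM3 ganglioside synthase, and St3gal1, which caps O-glycans, led at 209 and 88.4 CPM. In PARP2CKO the genes with the largest differences among separate groups were St8sia6 (-1.02, at 0.2 CPM on average) and St6galnac3 (-0.36, at 0.696 CPM), both with an edgeR adjusted p of 0.954. The list medians were -0.04 in PARP1CKO (-0.09 without replicate 1 of PARP1CKO) and -0.02 in PARP2CKO. The latter was above 0 with any 1 library of that comparison left out.

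In sialic acid metabolism, Renbp, an epimerase that acts on N-acetylglucosamine, and Nans, the sialic acid synthase, led the 11 genes at 166 and 85.8 CPM. Slc17a5, the lysosomal sialic acid exporter, was at 0.14 in PARP2CKO (the 1 list gene at an unadjusted p under 0.05 there; edgeR adjusted p = 0.954) and Nanp, the sialic acid phosphatase, at -0.12. The lysosomal sialidase Neu1 averaged 146 CPM and the membrane sialidase Neu3 1.45 CPM, while Neu2 and Neu4 had no count. Neu1 measured 141 and 151 CPM without Cre and 140 and 139 CPM with it (-0.06, adjusted p = 0.954).

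Among sialylated counter-receptors, all 7 tested were below 0 in PARP2CKO and 3 had separate groups, all lower, against 18.8% of all genes tested. Their median was -0.10, and it was -0.02 without replicate 2 of PARP2 WT, -0.07 without its replicate 1 and -0.06 without replicate 2 of PARP2CKO. Ptprc, which encodes CD45 and carries sialic acid bound by CD22, averaged 388 CPM. Cd24a, a ligand of Siglec-G, measured 113 and 96.2 CPM without Cre and 94.3 and 90.3 CPM with it (-0.18, edgeR adjusted p = 0.954), and Cd52, a short glycoprotein that binds Siglecs in soluble form, was at -0.11 (adjusted p = 0.954). Lgals3bp, a secreted glycoprotein, was called lower in PARP2 WT than in PARP1 WT (-0.35, adjusted p = 0.0408).

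The neighbours of Siglec1 on chromosome 2 were examined for a difference along the region in PARP1CKO IMCs. Of the 5 tested genes on each side, all 10 had a log2 fold change above 0 (median 0.22), and 7 had PARP1CKO libraries that were both above PARP1 WT, against 21% of all genes tested. The edgeR test called 0 of the 10 in PARP1CKO, with 4 at an unadjusted p under 0.05 (11.3% of all genes), DESeq2 called 0 (0.652% of all genes) and the likelihood-ratio test 1, 1700037H04Rik (1.11% of all genes). In PARP2CKO the median was -0.01 and 2 were separate and higher, against 18.4% of all genes. The nearest, Adam33, a membrane protease 23.0 kb from the Siglec1 start site, was at 0.69 in PARP1CKO (edgeR adjusted p = 0.378) at a mean of 2.89 CPM. Gfra4, a receptor for a neurotrophic factor, was at 0.37 (adjusted p = 0.649), with a mean of 0.517 CPM. Of the 10 neighbours of Cd22, 3 were separate and higher and 2 separate and lower in PARP1CKO, with 3 and 0 for Cd33, 2 and 0 for Siglece and 0 and 2 for Siglech (20.2% of all genes were separate and lower). These windows were unequal in width. The farthest neighbour of Siglec1 lay at 180.4 kb and that of Siglece at -590.0 kb (negative is upstream), and those upstream of Siglech at -6009.1 to -3762.2 kb. Cd33 and Siglece shared most of their neighbours, and each was a neighbour of the other.

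**Figure D4:**
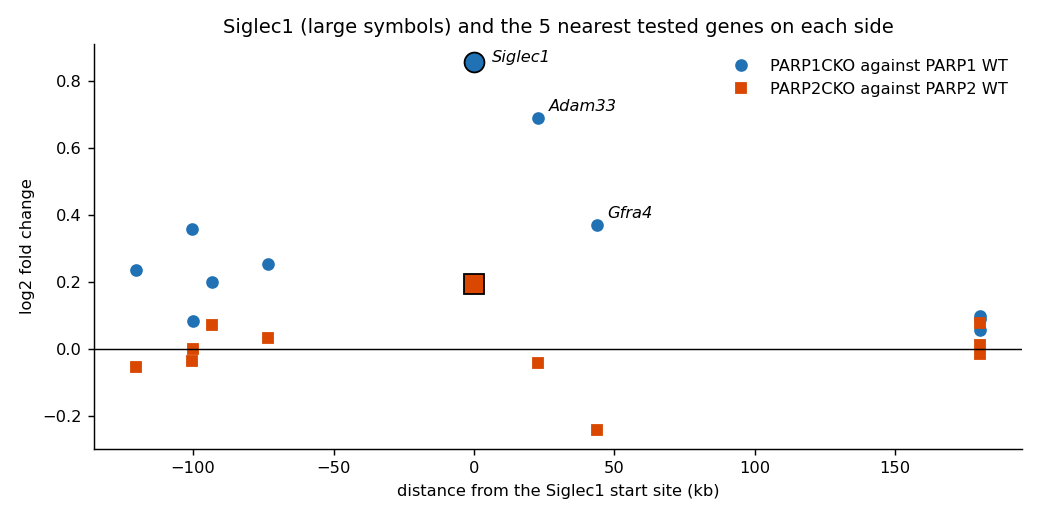
Log2 fold change of Siglec1 (large symbols) and of the 5 nearest tested genes on each side against the distance from the Siglec1 start site (kb, in the direction of Siglec1 transcription). In PARP1CKO all 10 neighbours lie above 0, with Adam33 at 0.69 and Gfra4 at 0.37; in PARP2CKO their median is -0.01.

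Each of the 5 genes was compared with 11446 other genes at a mean of at least 1 CPM for likeness across the 8 libraries. Those most like Siglec1 were Mex3d (r = 0.952), Necap2 (0.95), Jup (0.949), Olfr613 (0.947) and Trim11 (0.946). Siglece was most like Cyfip2 (0.971), Runx2 (0.968), AK010878 (0.966), Trim33 (0.953) and Pcdhac2 (0.952). For Siglech they were Nedd4 (0.963), Itpr1 (0.963), Tnik (0.962), Dennd4a (0.955) and Carns1 (0.954).

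For Cd33 the nearest were Cenpv (0.973), S100a8 (0.963), Dennd3 (0.962) and Lactb2 (0.952). Those of Cd22 were Rtn3 (0.952), Stk19 (0.912), Slfn5 (0.897), Gnb4 (0.891) and Ogfod3 (0.889), the weakest set of the 5. Each r is among the highest of 11446 over 8 points. Among the 5 receptor genes themselves, Siglec1 was most like Cd22 (r = 0.64) and Siglech most like Siglece (0.73), whereas Siglec1 had an r of -0.33 with Cd33.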

How the data were processed

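Total RNA of 8 IMC libraries was sequenced with a strand-specific kit from 4 µg of RNA each. The authors deposited raw counts per gene, made by mapping reads to mm10 with TopHat2 2.0.12, marking duplicates with Picard 1.127 and counting with featureCounts. The annotation, the use of strand and the fate of marked duplicates are not given in the sources used here. The genes studied and all gene lists were chosen with earlier results of these data known.

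Counts were scaled by TMM, filtered with filterByExpr and tested with the quasi-likelihood test of edgeR 4.0.16 in R 4.3.3, with 1 mean per group over all 8 libraries. P-values were adjusted over 13197 genes by Benjamini-Hochberg, with a threshold of 0.05. An exact permutation test of 2 against 2 libraries cannot go below 0.333 and was not used. CPM use the TMM-scaled totals, which ranged from 37852450 to 61845125 counts before scaling. The likelihood-ratio test, DESeq2 1.42.0, other scalings and filters, a replicate block and leaving out each library were alternatives. The scripts were tested on simulated counts. Exon lengths and positions came from GENCODE (mm10) and promoters from RefSeq (GRCm38.p6).

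Named were the 5 genes, Parp1, Parp2, the further Siglecs, every list gene called, in each pathway list the 2 most abundant and the 2 with the largest PARP2CKO difference among separate groups, and the 5 genes most like each receptor gene. Adam33, Gfra4, Mertk, Ccr9, S100a8 and other marker genes were named after their values were seen, and a few genes that the rule names are not reported here. Replicates of each group differed by more than counting noise (chi-square per gene 8.70 to 13.1), so none was treated as a repeat deposit of another, which does not show that they are independent animals.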

Additional observations from a re-analysis of the deposited data

Results flagged for a closer look

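Parp2 was listed because its change differed between the deletions by the edgeR interaction test, which restates the design, since Parp2 is the gene deleted in PARP2CKO and not in PARP1CKO. Its log2 fold change was 0.82 lower in PARP2CKO against PARP2 WT than in PARP1CKO against PARP1 WT (difference -0.82, adjusted p = 0.00634), with both PARP2CKO libraries below both PARP2 WT libraries. None of the 5 Siglec genes moved in opposite directions in all libraries of the deletions.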

How the results depend on the processing

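With 1 library left out, Siglech ranged from -0.50 to 0.29 in PARP2CKO, with 0.29 without PARP2 WT replicate 1. In PARP2 WT against PARP1 WT it ranged from -0.78 to 0.0132, the latter without PARP2 WT replicate 2, and Cd22 from -0.0897 to 0.00827, the latter without PARP1 WT replicate 1. With the longest transcript as length, Siglech reached 1.6, Cd33 10.1 and Cd22 2.32 CPM per kb, with the order kept. Genes called numbered 14 in PARP1CKO, 7 in PARP2CKO, 417 between the control groups and 2 for the difference of the deletions. DESeq2 called 86, 27, 551 and 45, the likelihood-ratio test 146, 39, 910 and 72, and no filter gave 101, 26, 872 and 61. Leaving out 1 library gave 1 to 34, 6 to 19, 85 to 319 and 1 to 16. The cause was not tested. Same-numbered libraries correlated at -0.133 in the PARP1 line and 0.147 in the PARP2 line, so the numbers do not show a pairing. With the replicate block the calls were 17, 11, 267 and 1, and with the block crossed in the PARP1 line, chosen after seeing the data, 46 in PARP1CKO and 42 for the difference. No block or tool called any of the 5 receptor genes in PARP2CKO (adjusted p from 0.387 to 1 for Cd22, 0.5 to 1 for Cd33 and 0.637 to 1 for Siglec1). Siglech, at 121 to 259 counts per library, had an SE of 0.28 in PARP2CKO, against 0.08 for Siglec1 at 2709 to 6765 counts.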
